A study of Mus musculus with 9 samples.

Results

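The mitochondrial solute carriers are the gene family whose symbols begin with Slc25a, together with the uncoupling proteins Ucp1, Ucp2 and Ucp3 and the carrier homologues Mtch1 and Mtch2. Members were found by symbol alone among the 36410 genes of the RNA-seq count table, which gave 52 genes, 47 of them named Slc25a and 5 others. Of these, 43 had enough reads to be compared between cell lines, as had 13508 genes in all, by a minimum on counts.

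Carriers of this family sit mostly in the inner mitochondrial membrane and move nucleotides, phosphate, carboxylates, amino acids, cofactors and metals between the cytosol and the matrix. They share a fold made of repeated membrane-spanning segments and work mainly as exchangers, for example of cytosolic ADP for matrix ATP. A few members, such as Mtch1, Mtch2 and Slc25a46, lie in the outer membrane, and uncoupling proteins let charge or anions cross the inner membrane. In neurons the aspartate/glutamate and phosphate carriers feed NADH shuttles and ATP synthesis.

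The samples were immortalized mouse striatal cells of strain C57/BL6 with a knock-in of huntingtin exon 1, whose glutamine repeat is expanded in the HD alleles. The control line (STHdhQ7/Q7) carries the wild-type repeat length on both alleles, the HD-het line (STHdhQ7/Q111) has 1 expanded allele, and the HD-homo line (STHdhQ111/Q111) has the expansion on both. Each line gave 3 poly(A) RNA libraries, and because each genotype is 1 line, genotype and line cannot be told apart. The labels do not say that the 3 libraries came from separate cultures, so the p-values measure the spread between these libraries, which may be technical. Values are normalized counts per megaread (CPM), given as the mean with the SD over 3 libraries.

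Between 29507665 and 41197931 reads were counted per library, and 3 counts, the smallest number taken to show a gene, correspond to 0.0710 to 0.101 CPM. That floor covers counting error only. Htt itself stood at 93.0 to 104 CPM in the control libraries and had means of 62.3 CPM in HD-het and 20.2 CPM in HD-homo cells. The cells carried little of the projection neuron programme, since the 10 listed striatal markers summed to 3.75 to 7.41 CPM in all libraries, with Drd1 at 0. Markers of neural progenitors summed to 660 to 702 CPM in control, 958 to 996 in HD-het and 27.9 to 40.8 in HD-homo cells. Nes made up most of that sum, at 526, 840 and 28.4 CPM in the same order. Pax6 and Fabp7 were also highest in HD-het cells, but Sox2 was lower there, at 128, 82.9 and 5.48 CPM, and Hes5 was at 0. Smooth muscle and mesenchymal markers summed to 13773 to 15755, 28262 to 30107 and 15161 to 16672 CPM. The members of the last list went opposite ways, with Acta2 at 2271 CPM in control, 5290 in HD-het and 91.8 in HD-homo cells, Tagln at 272, 1790 and 21.6 CPM, and Col1a2 at 73.4, 3.15 and 1494 CPM. Pan-neuronal markers summed to 143 to 174 CPM in control, 110 to 117 in HD-het and 92.3 to 116 in HD-homo cells. Their members did not move together. In the same order, Stmn2 had means of 53.7, 2.71 and 2.75 CPM and Gap43 of 3.14, 0.358 and 0.351 CPM. Map2 changed little, at 62.9, 60.4 and 59.7 CPM, and Tubb3 was highest in HD-het cells, at 42.4, 50.8 and 37.8 CPM. These lists differ between lines along with the carriers, and their part in the carrier results was not tested. Astrocyte, oligodendrocyte, microglial and endothelial lists summed to at most 2.48 CPM. In these bulk samples fewer cells of a type and less RNA per cell cannot be told apart.

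The family as a whole held 0.306% to 0.381% of all counted reads. Its summed level was 3696 to 3806 CPM in the control libraries, 3074 to 3240 CPM in HD-het and 3438 to 3541 CPM in HD-homo cells, so that the 3 lines did not overlap. Slc25a3, Slc25a4 and Slc25a5 alone made up 48.5% to 50.3% of the family's counts in control, 41.6% to 43.4% in HD-het and 45.8% to 47.2% in HD-homo cells. Levels were compared between genes per kb of the longest annotated transcript. On that scale the order in control cells was Slc25a5 at 386 ± 9.81 CPM per kb, Slc25a4 at 303 ± 12.7, Slc25a3 at 192 ± 6.93, Mtch1 at 88.9 ± 0.491 and Slc25a24 at 75.3 ± 1.66, with no overlap between neighbours within 1 SD. With the median transcript length in place of the longest, Slc25a3 came first at 568 CPM per kb, ahead of Slc25a5 at 484 and Slc25a4 at 365. Slc25a17 then took place 4 at 174, Mtch1 place 5 at 172 and Slc25a24 place 8 at 126. The order of these members thus depends on the transcript assumed. At the other end, 9 members had 8 counts or fewer in every library and were not tested, namely Slc25a2, Slc25a18, Slc25a21, Slc25a31, Slc25a34, Slc25a41, Slc25a54, Ucp1 and Ucp3. Slc25a41 and Slc25a54 were at 0 in all 9 libraries, which allows at most the floor given above. Ucp1, the uncoupling protein of brown fat, had at most 1 count in any library.

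**Figure D1:**
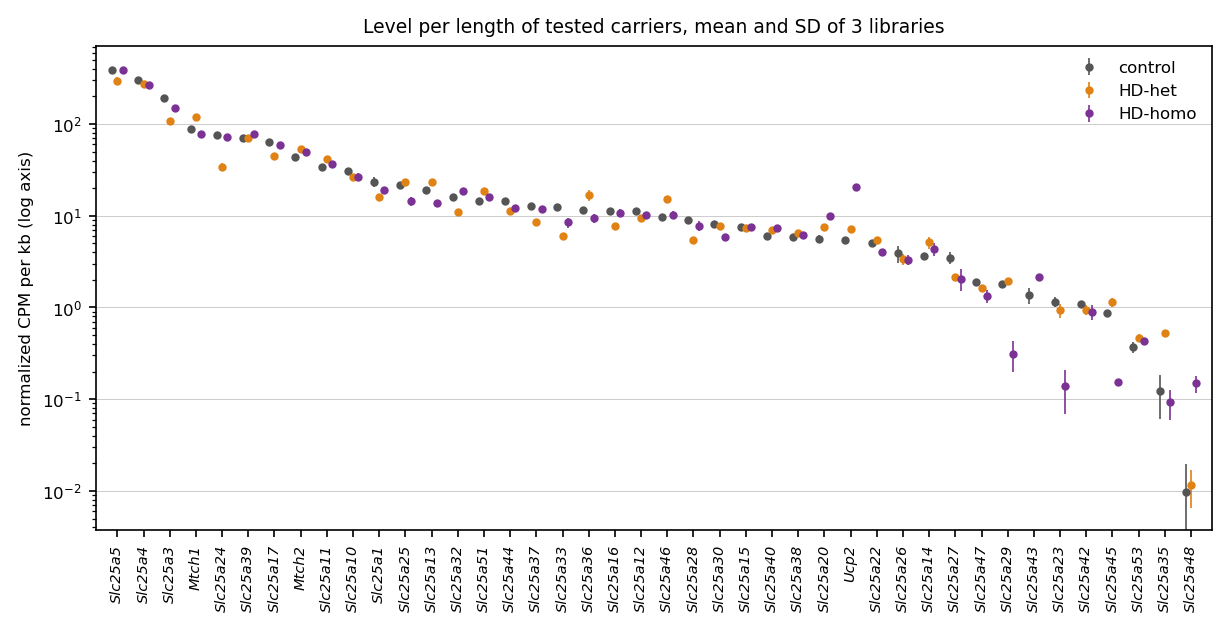
Level of the tested carriers described here, per kb of its longest transcript (normalized CPM per kb, log axis) in the 3 lines, with points at the mean and bars at the SD of 3 libraries. Slc25a5, Slc25a4 and Slc25a3 lead in control cells, Ucp2 stands higher in HD-homo cells, and Slc25a23, Slc25a29 and Slc25a45 stand lower there. Means of 0 (Slc25a43 in HD-het cells) cannot be drawn on a log axis.

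Against control cells, 29 of the 43 tested carriers passed the test in HD-het cells, 13 higher and 16 lower, and 25 passed it in HD-homo cells, 8 higher and 17 lower. Without control replicate 1, 5 carriers were higher in HD-homo cells. The test was edgeR's quasi-likelihood test, its p adjusted by Benjamini-Hochberg over all 13508 genes, and an adjusted p under 0.05 was the threshold. The shares have to be read against a background in which most genes differ between the lines. In HD-het cells 67.4% of carriers were called against 65.1% of all genes, with 33.8% of all genes higher and 31.4% lower. In HD-homo cells 58.1% of carriers were called against 58.6% of all genes, and 18.6% of carriers were higher and 39.5% lower, where all genes gave 29.6% higher and 28.9% lower. Between the HD lines 28 carriers differed, 15 higher and 13 lower in HD-homo cells, or 65.1% against 71.6% of all genes, of which 36.0% were higher and 35.6% lower. Changes of at least 2-fold were found for 4 carriers in HD-het cells, 5 in HD-homo cells and 8 between the HD lines. All genes gave such changes in 18.4%, 19.1% and 24.3% of cases, and the carriers in 9.3%, 11.6% and 18.6%.

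The median log2 fold change of the carriers was -0.06 in HD-het and -0.18 in HD-homo cells, beside 0.03 and 0.01 over all tested genes. The median size of a change regardless of sign was 0.35 and 0.27 for the carriers and 0.40 and 0.32 for all genes. Both HD lines were compared with the same 3 control libraries, so the 2 sets of changes are not independent. Side by side, 11 carriers were called in the same direction in both lines, 4 higher and 7 lower, whereas 6 were called in opposite directions. A further 12 were called only in HD-het cells and 8 only in HD-homo cells, which is not a test that the lines differ. The test between the HD lines was used for that. By the 3 tests together HD-het cells lay outside both homozygous lines for 19 carriers, above them for 8 and below them for 11. These patterns were not counted over all tested genes, so they cannot be read as a trait of the carriers. Of all tested genes, 65.1% were called in HD-het cells, 58.6% in HD-homo cells and 71.6% between the HD lines. No comparison called the remaining 6 carriers, among them Slc25a15, an ornithine carrier of the urea cycle, at 33.3 ± 1.5 CPM in control, 32.4 ± 2.78 in HD-het and 33.1 ± 1.67 in HD-homo cells. Its log2 difference from control lay between -0.21 and 0.13 in HD-het and between -0.18 and 0.16 in HD-homo cells (95% intervals). The others were Slc25a10, Slc25a26, Slc25a38, Slc25a42 and Slc25a53, which import dicarboxylates, S-adenosylmethionine, glycine and coenzyme A in the first 4 cases. Slc25a26 had 8.08 ± 1.73, 6.97 ± 0.935 and 6.84 ± 0.824 CPM in the 3 lines and Slc25a38 had 10.6 ± 0.0774, 11.7 ± 0.458 and 11.1 ± 0.383 CPM, in the order control, HD-het, HD-homo.

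**Figure D2:**
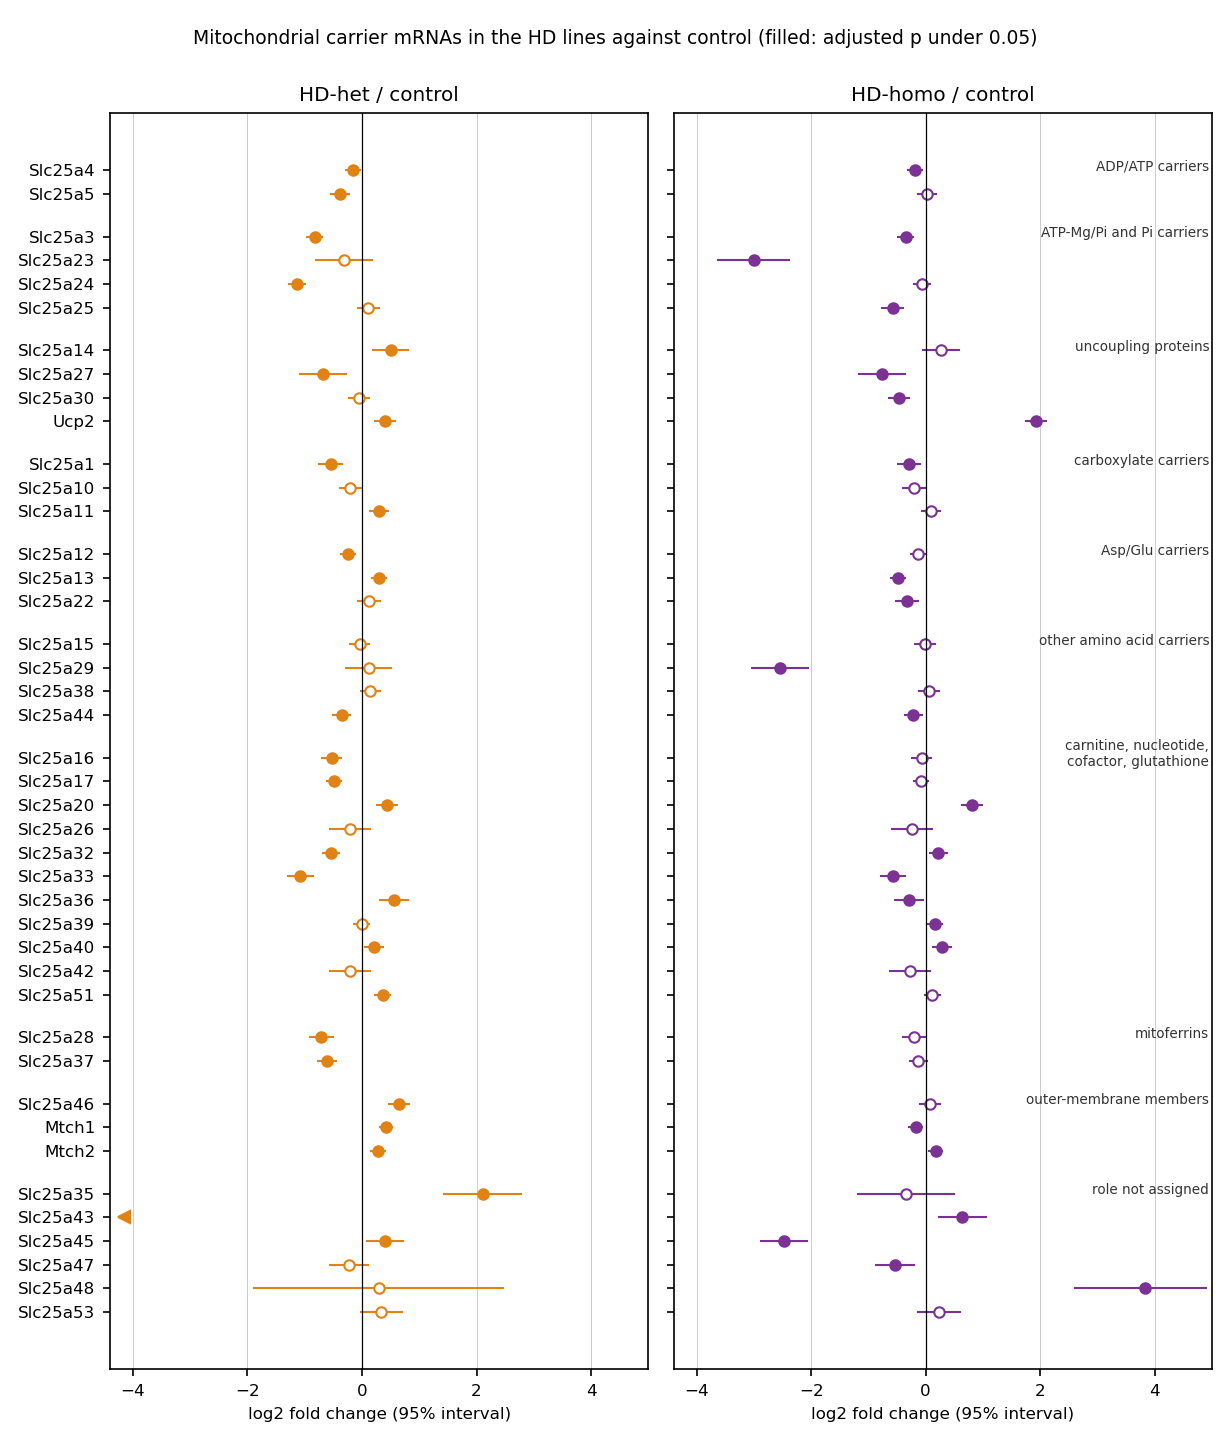
Log2 fold change of the tested carriers described here in HD-het cells (left) and HD-homo cells (right) against control, grouped by transport role, with the 95% interval of the fit. Filled points passed edgeR's quasi-likelihood test at an adjusted p under 0.05, and the triangle at the left edge marks Slc25a43, which had no count in HD-het cells. Most points lie within 1 log2 unit of 0, and those beyond it in HD-homo cells are Ucp2, Slc25a23, Slc25a29, Slc25a45 and Slc25a48.

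The phosphate carrier and both ADP/ATP carriers tested, which serve ATP synthesis, were lower in HD-het cells, as were 31.4% of all tested genes. Slc25a3, which brings phosphate into the matrix for ATP synthase, was at 767, 756 and 809 CPM in the control libraries, 433, 422 and 464 in HD-het and 630, 585 and 614 in HD-homo libraries. The 3 lines did not overlap, and the level in HD-homo cells lay between the other two. Slc25a3 fell by 0.82 ± 0.0597 on the log2 scale in HD-het cells (SE, adjusted p = 5.7e-07) and by 0.35 ± 0.0593 in HD-homo cells (adjusted p = 0.000398), and HD-homo cells were 1.39-fold above HD-het cells (adjusted p = 2.6e-05, edgeR's quasi-likelihood test throughout). The ADP/ATP carriers, which exchange cytosolic ADP for matrix ATP, changed less. Slc25a4 had 584 ± 24.5 CPM in control, 524 ± 13.2 in HD-het and 514 ± 13.7 in HD-homo cells, differences of -0.16 and -0.18 on the log2 scale (adjusted p = 0.0256 and 0.0136, edgeR). Without control replicate 3 neither passed, with -0.12 (adjusted p = 0.0947) and -0.15 (adjusted p = 0.0542), and the first was also lost without control replicate 2 or HD-het replicate 1 or 2, at adjusted p of 0.0529, 0.0615 and 0.0847.

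Slc25a5, the ADP/ATP carrier of dividing cells, was at 472, 472 and 493 CPM in control, 350, 348 and 407 in HD-het and 514, 483 and 465 in HD-homo libraries. It was lower in HD-het cells than in control (log2 fold change -0.38 ± 0.0708, adjusted p = 0.000672) and did not pass in HD-homo cells (0.03, 95% interval -0.13 to 0.18). Of the 50-base words of its longest transcript, 46.6% also occur in other genes, most of all in the gene models Gm5560, Gm5529 and Gm5256. Its counts are therefore uncertain where reads could be split. The ratio of Slc25a5 to Slc25a4 reads ran from 0.806 to 0.836 in control, 0.666 to 0.760 in HD-het and 0.930 to 0.976 in HD-homo libraries, without overlap. The testis form Slc25a31 had at most 1 count per library.

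The ATP-Mg/phosphate carriers, which change the matrix adenine nucleotide pool in response to calcium, differed from control in one line or the other by member, Slc25a24 being lower in HD-het cells and Slc25a25 and Slc25a23 in HD-homo cells. Slc25a24 had 263, 252 and 261 CPM in control, 108, 116 and 129 in HD-het and 245, 246 and 251 in HD-homo libraries. The HD-het libraries stood far below the rest, and the HD-homo libraries lay just under the control range. Its fall in HD-het cells was 2.19-fold (log2 -1.13 ± 0.0659, adjusted p = 1.07e-07), and HD-homo cells were 2.10-fold above HD-het cells (adjusted p = 7.39e-08), whereas in HD-homo cells against control the log2 difference was -0.06 (95% interval -0.21 to 0.08). Slc25a25 was lowest in HD-homo cells, with 83.2, 82.8 and 80.9 CPM in control, 92.1, 93.0 and 81.5 in HD-het and 48.8, 60.7 and 55.9 in HD-homo libraries. It was 1.49-fold lower in HD-homo cells than in control (adjusted p = 9.98e-05) and 1.61-fold lower than in HD-het cells (adjusted p = 1.53e-05).

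Slc25a23, a further ATP-Mg/phosphate carrier, was nearly lost in HD-homo cells. It had 111, 128 and 131 counts in control, 120, 115 and 83 in HD-het and 8, 30 and 15 in HD-homo libraries, or 3.90 ± 0.494, 3.13 ± 0.557 and 0.468 ± 0.233 CPM. The HD-homo libraries were all below the others. The level was 8.33-fold lower than in control (log2 -3.0 ± 0.282, adjusted p = 3.7e-06) and 6.68-fold lower than in HD-het cells (adjusted p = 6.35e-06). Low-level members such as this one, Slc25a29, Slc25a35, Slc25a43, Slc25a45 and Slc25a48 were chosen for description after their values were seen, since none reaches 5 CPM. Slc25a29, a mitochondrial carrier of basic amino acids, had 116, 125 and 98 counts in control, 126, 135 and 130 in HD-het and 28, 17 and 20 in HD-homo libraries. Its level was 5.73-fold lower in HD-homo cells than in control (log2 -2.54 ± 0.219, adjusted p = 1.76e-06). Slc25a45 followed the same order with 69, 80 and 67 counts, 94, 109 and 100 counts and 13, 18 and 13 counts, and was 5.60-fold lower in HD-homo cells than in control (adjusted p = 5.3e-07) and 7.40-fold lower than in HD-het cells (adjusted p = 8.07e-08, edgeR). Its rise in HD-het cells of 1.32-fold (adjusted p = 0.0295) was lost when control replicate 1, 2 or 3 or HD-het replicate 2 or 3 was left out, with adjusted p between 0.0548 and 0.116, and in DESeq2's Wald test (adjusted p = 0.107).

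These 3 genes lie on different chromosomes. The 250 bases before a RefSeq start site are shown for them on GRCm38.p6, because they are the members that fell most in HD-homo cells. Each is read 5′ to 3′ on the gene's strand, with GC boxes (GGGCGG) and CCAAT boxes (CCAAT) found on either strand in capitals.
Slc25a23 promoter, chr17:57059843-57060092, minus strand: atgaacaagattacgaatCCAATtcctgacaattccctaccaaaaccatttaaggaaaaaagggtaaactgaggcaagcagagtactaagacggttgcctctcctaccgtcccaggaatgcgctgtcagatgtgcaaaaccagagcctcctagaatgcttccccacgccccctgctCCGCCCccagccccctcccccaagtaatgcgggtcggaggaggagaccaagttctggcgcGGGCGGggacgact
Slc25a29 promoter, chr12:108835877-108836126, minus strand: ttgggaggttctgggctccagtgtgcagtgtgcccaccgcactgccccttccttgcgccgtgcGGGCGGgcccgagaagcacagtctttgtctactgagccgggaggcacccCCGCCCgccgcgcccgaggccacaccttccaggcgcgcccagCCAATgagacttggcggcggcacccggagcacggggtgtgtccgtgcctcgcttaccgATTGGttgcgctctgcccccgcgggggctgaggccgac
Slc25a45 promoter, chr19:5877572-5877821, plus strand: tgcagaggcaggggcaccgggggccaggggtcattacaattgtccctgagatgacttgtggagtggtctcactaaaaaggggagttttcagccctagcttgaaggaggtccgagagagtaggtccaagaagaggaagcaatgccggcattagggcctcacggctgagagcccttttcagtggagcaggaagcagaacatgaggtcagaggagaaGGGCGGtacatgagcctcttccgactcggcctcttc
The first holds 1 CCAAT box and 2 GC boxes, the next holds 2 of each, and the last holds 1 GC box. By the RefSeq annotation Slc25a29 lies 14.0 kb from Slc25a47, which is on the opposite strand, whereas the GENCODE model of Slc25a47 starts at position 108836046 of chromosome 12, inside the stretch printed for Slc25a29. Slc25a47 was 3.59 ± 0.209 CPM in control, 3.07 ± 0.217 in HD-het and 2.5 ± 0.413 in HD-homo cells. Slc25a47 was 1.43-fold lower in HD-homo cells than in control (adjusted p = 0.0107), a smaller difference than that of its neighbour. Slc25a41, 2.1 kb from Slc25a23 on the same strand, had no count in any library. An unnamed transcript model, Gm17168, overlaps Slc25a23 exons on the other strand, and whether the counting used strand is not given in the sources used here.

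**Figure D3:**
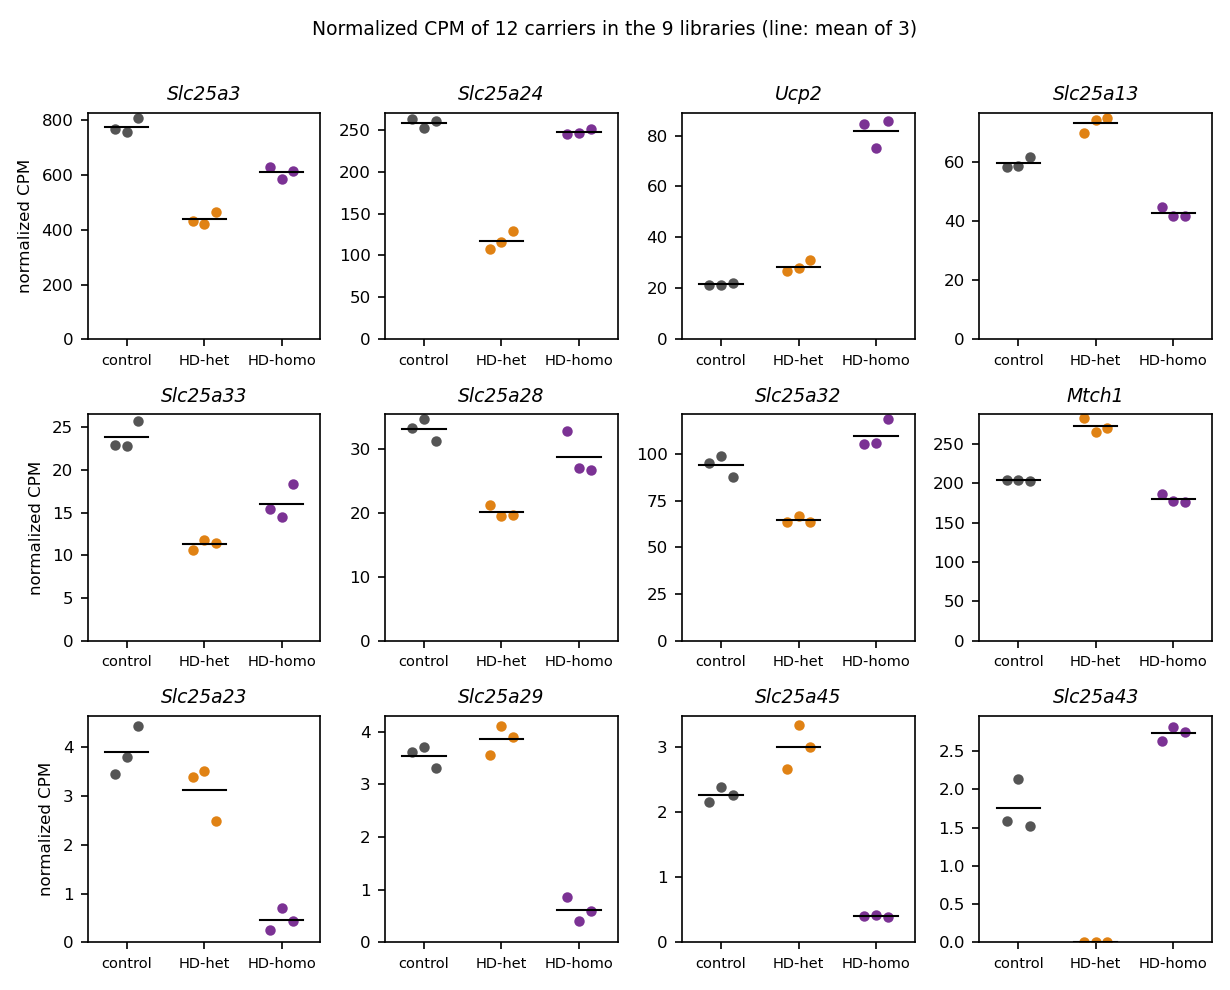
Normalized CPM of 12 carriers in each of the 9 libraries (points) with the mean of 3 (line), each panel starting at 0. Slc25a3, Slc25a24, Slc25a33, Slc25a28 and Slc25a32 are lowest in HD-het cells, Ucp2 is highest in HD-homo cells, Slc25a23, Slc25a29 and Slc25a45 are lowest in HD-homo cells, and Slc25a43 is at 0 in all 3 HD-het libraries.

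Ucp2, an inner-membrane carrier that exports C4 metabolites and can lower the membrane potential, rose most among the well-expressed members. It had 21.3, 21.4 and 21.9 CPM in control, 26.7, 27.8 and 30.9 in HD-het and 84.7, 75.0 and 85.7 in HD-homo libraries, so the 3 lines were separate. Against control it was 3.80-fold higher in HD-homo cells (log2 1.92 ± 0.0772, adjusted p = 3.42e-09) and 1.32-fold higher in HD-het cells (adjusted p = 0.000778), and HD-homo cells were 2.87-fold above HD-het cells (adjusted p = 1.43e-08, edgeR). Per kb of the longest transcript its place among the 52 members moved from 29 in control to 25 in HD-het and 11 in HD-homo cells. With the median transcript length the places were 20, 18 and 8. Its neighbour Ucp3, which starts upstream on the same strand with 6.9 kb between them, had 8 counts or fewer in every library. Exons of Dnajb13 overlap Ucp2 on the other strand. Among the related members, Slc25a27 (UCP4) was lower in both HD lines, with 10.8, 11.0 and 8.35 CPM in control, 6.65, 6.46 and 5.63 in HD-het and 7.33, 6.30 and 4.21 in HD-homo libraries. Its log2 fold changes were -0.69 ± 0.183 (adjusted p = 0.00626) and -0.76 ± 0.183 (adjusted p = 0.00413). Slc25a30 was 1.39-fold lower in HD-homo cells (adjusted p = 0.000407), and Slc25a14 was 1.41-fold higher in HD-het cells (adjusted p = 0.00911). In HD-homo cells Slc25a14 passed when HD-homo replicate 3 was left out (0.40 on the log2 scale, adjusted p = 0.0178). The 250 bases before the Ucp2 start site, shown because Ucp2 rose most, hold 1 GC box, in capitals.
Ucp2 promoter, chr7:100493108-100493357, plus strand: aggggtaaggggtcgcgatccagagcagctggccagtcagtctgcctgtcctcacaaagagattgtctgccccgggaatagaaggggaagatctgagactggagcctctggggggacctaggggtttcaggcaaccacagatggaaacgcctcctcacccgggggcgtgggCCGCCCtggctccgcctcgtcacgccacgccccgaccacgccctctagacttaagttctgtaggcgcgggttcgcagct

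Slc25a43 was the member with the widest gap between lines. It had 51, 72 and 45 counts in control, 0, 0 and 0 in HD-het and 86, 119 and 92 in HD-homo libraries. A count of 0 allows up to 3 counts per library, so control cells were at least 19.7-fold and HD-homo cells at least 30.8-fold above HD-het cells (adjusted p = 8.13e-07 and 1.5e-07, edgeR's quasi-likelihood test). HD-homo cells were 1.56-fold above control (adjusted p = 0.0138), a call that was lost without control replicate 1 or 3 (adjusted p = 0.0584 and 0.0525). No substrate is assigned to Slc25a43 here. It lies on the X chromosome at chrX:36743570-36777307 on the plus strand of GRCm38, 18.3 kb before Slc25a5. The genes on either side kept their reads in HD-het cells. Akap17b had 369, 436 and 340 counts in HD-het against 123, 135 and 98 in control libraries, and Slc25a5 had 11412 to 13605 in HD-het libraries. Pgrmc1 and Ube2a also had over 1000 counts in each HD-het library. Only the row of Slc25a43 was at 0 in HD-het cells among the neighbours with more than 5 counts in any library. Counts cannot show whether the gene itself is present in the HD-het line, and this was not tested.

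The promoter stretches of this pair of neighbours are shown because one gene had no reads and the other kept most of its reads in HD-het cells, with GC boxes in capitals.
Slc25a43 promoter, chrX:36743382-36743631, plus strand: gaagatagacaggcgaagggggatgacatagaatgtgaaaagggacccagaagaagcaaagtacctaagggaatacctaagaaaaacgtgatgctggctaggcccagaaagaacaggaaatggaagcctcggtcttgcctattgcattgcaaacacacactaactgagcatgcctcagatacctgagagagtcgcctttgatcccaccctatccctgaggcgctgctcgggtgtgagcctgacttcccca
Slc25a5 promoter, chrX:36795347-36795596, plus strand: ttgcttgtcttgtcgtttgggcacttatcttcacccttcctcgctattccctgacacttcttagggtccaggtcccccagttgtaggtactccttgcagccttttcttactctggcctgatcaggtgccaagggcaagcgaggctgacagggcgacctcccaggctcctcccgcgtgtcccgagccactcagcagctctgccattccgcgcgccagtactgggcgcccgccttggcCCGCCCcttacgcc
None of the 7 motifs searched was found in the Slc25a43 stretch, and 1 GC box was found before Slc25a5. With the 50 bases after the start included, Slc25a43 also had a GC box. A match or its absence describes letters in this window only. In windows from 250 bases before to 50 after a RefSeq start, a GC box was found for 31 of 34 tested members with such a window (91.2%) and for 68.6% of 10396 tested genes, beside 38.2% of all 27025 genes. CCAAT was found for 17 of the 34 members and 43.2% of tested genes, the E-box CACGTG for 17.6% and 11.6%, and the CRE TGACGTCA for 5.88% and 3.48%. The NRF1 core GCGCATGC was found for 2.94% and 5.90%, the ETS core CCGGAAGT for 5.88% and 8.86%, and the C/EBP-ATF element TGATGCAA for no member and 0.673%. All motifs were searched on both strands, and GC boxes and CCAAT boxes do not contain each other.

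Slc25a35 and Slc25a48, whose substrates are not assigned here, were each high in a different line. Slc25a35 had 9, 12 and 21 counts in control, 64, 67 and 64 in HD-het and 10, 20 and 8 in HD-homo libraries, and was 4.28-fold higher in HD-het cells than in control (adjusted p = 9.6e-05) with 1.92 ± 0.119 CPM. Slc25a48 had at most 2 counts in any control or HD-het library and 14, 19 and 21 in HD-homo libraries. Against a floor of 3 counts per library HD-homo cells were at least 5.30-fold above control. Slc25a48 met the minimum on counts only through the HD-homo libraries, where it is high. Its calls as higher there, which are included in the counts of carriers above, are therefore no independent support for a rise. Both are low in every line, and exons of Rangrf overlap Slc25a35 on the other strand.

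The aspartate/glutamate carriers, which export matrix aspartate for the malate-aspartate NADH shuttle, split by isoform. Slc25a12, the form of brain and muscle, had 71.6, 71.3 and 70.8 CPM in control, 59.4, 58.0 and 63.2 in HD-het and 62.1, 68.7 and 64.7 in HD-homo libraries. It was lower in HD-het cells (log2 -0.24 ± 0.0583, adjusted p = 0.00338) and missed the threshold in HD-homo cells (-0.13, adjusted p = 0.0774, edgeR), which it passed without HD-homo replicate 2 (-0.17, adjusted p = 0.033). Slc25a13, also known as citrin, had 58.4, 58.8 and 61.9 CPM in control, 70.0, 74.5 and 75.1 in HD-het and 44.9, 41.7 and 41.8 in HD-homo libraries. The lines were separate, with HD-het highest and HD-homo lowest. It rose by 0.29 ± 0.0581 (log2) in HD-het cells (adjusted p = 0.000949), fell by 0.48 ± 0.0587 in HD-homo cells (adjusted p = 3.23e-05) and was 1.71-fold lower in HD-homo cells than in HD-het cells (adjusted p = 4.01e-07). The glutamate carrier Slc25a22 was 1.25-fold lower in HD-homo cells than in control (adjusted p = 0.00706).

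Among carboxylate carriers, Slc25a1, which exports citrate for acetyl-CoA and lipid synthesis, was 39.3 ± 4.9 CPM in control, 26.9 ± 1.72 in HD-het and 32.2 ± 0.707 in HD-homo cells. It was 1.46-fold lower in HD-het cells (adjusted p = 0.000255) and 1.22-fold lower in HD-homo cells (adjusted p = 0.0166), and the latter was lost without control replicate 3 (adjusted p = 0.0725). HD-homo cells were 1.20-fold above HD-het cells (adjusted p = 0.0221), which was lost without HD-het replicate 2 (adjusted p = 0.0905). The oxoglutarate/malate carrier Slc25a11 was 1.23-fold higher in HD-het cells than in control (adjusted p = 0.003), and the dicarboxylate carrier Slc25a10 passed in no comparison, at 62.0 ± 1.29, 53.9 ± 4.53 and 53.9 ± 5.83 CPM. Slc25a10 did pass as lower in HD-het cells without HD-het replicate 3 or HD-homo replicate 1 or 3 (adjusted p = 0.0224, 0.0398 and 0.0228) and in DESeq2's Wald test (adjusted p = 0.0478), and as lower in HD-homo cells without HD-het replicate 3 or HD-homo replicate 1 (adjusted p = 0.0463 and 0.0233). Its HD-het call also passed in edgeR with only the 2 lines compared (adjusted p = 0.0148) and with library totals alone (adjusted p = 0.0430). The same held without replicate 3 of control and HD-het together (adjusted p = 0.0380).

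Both mitoferrins, which bring iron into the matrix for haem and iron-sulphur cluster synthesis, were lower in HD-het cells, as were 31.4% of all tested genes. Slc25a37 had 81.0, 76.9 and 71.0 CPM in control, 50.2, 51.1 and 48.9 in HD-het and 75.8, 67.7 and 66.1 in HD-homo libraries, and fell by 0.61 ± 0.0700 on the log2 scale in HD-het cells (adjusted p = 1.78e-05). Slc25a28 had 33.3, 34.7 and 31.3 CPM, 21.3, 19.6 and 19.8 CPM and 32.8, 27.0 and 26.8 CPM in the same order, and fell by 0.71 ± 0.0891 (adjusted p = 3.39e-05). In HD-homo cells both were above HD-het cells, 1.40-fold and 1.43-fold (adjusted p = 7.99e-05 and 0.00032). Against control, HD-homo cells differed by -0.13 (95% interval -0.28 to 0.02) and -0.20 (-0.39 to -0.01), which did not pass (adjusted p = 0.133 and 0.0698). Without HD-homo replicate 1 both passed, with -0.19 (adjusted p = 0.0382) and -0.30 (adjusted p = 0.00723). Slc25a39, which imports glutathione, was 118 ± 3.96, 118 ± 4.67 and 132 ± 7.70 CPM, and its rise in HD-homo cells (1.12-fold, adjusted p = 0.0375) was lost without control replicate 1 or 2, HD-het replicate 1 or HD-homo replicate 1 or 3 (adjusted p between 0.0552 and 0.141). The rise was also lost in edgeR without a filter on low counts (adjusted p = 0.0545) and with only the 2 lines compared (adjusted p = 0.0533). Its paralogue Slc25a40 was 26.9 ± 0.104, 31.1 ± 1.06 and 32.7 ± 2.75 CPM. Slc25a40 was higher in HD-homo cells than in control (1.22-fold, adjusted p = 0.0055), while its call in HD-het cells (1.16-fold, adjusted p = 0.0237) was lost without control replicate 1, 2 or 3 or HD-het replicate 1 or 2 (adjusted p between 0.0601 and 0.0726).

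Carriers of carnitine, nucleotides, cofactors and glutathione formed the largest group, with 12 members, all tested, among them Slc25a39 and Slc25a40 described above. Against control, 4 rose and 5 fell in HD-het cells, and 4 rose and 3 fell in HD-homo cells, where 65.1% and 58.6% of all genes were called in either direction. Slc25a33, a pyrimidine nucleotide carrier, had 22.9, 22.8 and 25.7 CPM in control, 10.7, 11.7 and 11.5 in HD-het and 15.4, 14.4 and 18.3 in HD-homo libraries. It was 2.11-fold lower in HD-het cells (log2 -1.08 ± 0.10, adjusted p = 3.62e-06) and 1.49-fold lower in HD-homo cells (adjusted p = 0.000436). Its paralogue Slc25a36 had 61.9, 64.9 and 54.0 CPM, 86.7, 101 and 77.7 CPM and 45.2, 55.3 and 46.9 CPM in the same order. Slc25a36 was 1.47-fold higher in HD-het cells (adjusted p = 0.000942) and 1.23-fold lower in HD-homo cells, where the libraries overlapped with control (adjusted p = 0.0389). The HD-homo call was lost without control replicate 1 or 2, HD-het replicate 1 or HD-homo replicate 1 or 3 (adjusted p between 0.0540 and 0.136) and with library totals alone (adjusted p = 0.0601). Of the 50-base words of the longest Slc25a36 transcript, 11.8% occur in the gene model Gm13217.

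Slc25a32, which carries folate into mitochondria, had 95.5, 99.0 and 87.6 CPM in control, 63.6, 66.6 and 63.8 in HD-het and 105, 106 and 119 in HD-homo libraries. It was 1.45-fold lower in HD-het cells than in control (adjusted p = 3.16e-05) and 1.70-fold higher in HD-homo cells than in HD-het cells (adjusted p = 1.38e-06). The 1.17-fold rise in HD-homo cells against control (adjusted p = 0.0133) was lost without control replicate 3 (adjusted p = 0.0594). Slc25a20, the carnitine/acylcarnitine exchanger of fatty acid oxidation, rose stepwise, with 16.6, 14.0 and 16.0 CPM in control, 20.3, 21.3 and 21.2 in HD-het and 25.8, 28.0 and 27.6 in HD-homo libraries. The rise was 1.35-fold in HD-het cells (adjusted p = 0.000584) and 1.74-fold in HD-homo cells (adjusted p = 5.49e-06), and the step between the HD lines was 1.29-fold (adjusted p = 0.00115). Slc25a51, the NAD carrier, was 1.29-fold higher in HD-het cells than in control (adjusted p = 0.00023), and the peroxisomal carrier Slc25a17 and Slc25a16 were 1.40-fold and 1.44-fold lower there (adjusted p = 1.78e-05 and 0.000101). Slc25a44, a carrier of branched-chain amino acids, was 1.28-fold lower in HD-het cells (adjusted p = 0.000846), and its call in HD-homo cells (1.16-fold lower, adjusted p = 0.0168) was lost without control replicate 1 or 3 or HD-homo replicate 2 (adjusted p = 0.0616, 0.0532 and 0.0535).

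All 3 outer-membrane members were higher in HD-het cells, as were 33.8% of all tested genes. In HD-homo cells 1 of them was higher, 1 lower and 1 not called. Mtch1, an insertase of the outer membrane, had 205, 204 and 202 CPM in control, 282, 265 and 270 in HD-het and 187, 177 and 177 in HD-homo libraries. It rose by 0.42 ± 0.0502 (log2) in HD-het cells (adjusted p = 2.44e-05) and fell by 0.18 ± 0.0502 in HD-homo cells (adjusted p = 0.0107). Mtch2, its paralogue with the same activity, had 133, 133 and 141 CPM, 165, 159 and 172 CPM and 154, 153 and 155 CPM in the same order, and was higher in HD-het cells (1.21-fold, adjusted p = 0.000626) and in HD-homo cells (1.13-fold, adjusted p = 0.0119). The call in HD-homo cells was lost without control replicate 1 or 2 (adjusted p = 0.0573 and 0.0544). Slc25a46, which acts in mitochondrial fusion and cristae shape, had 41.6, 44.5 and 41.9 CPM in control, 65.7, 71.2 and 64.2 in HD-het and 39.7, 46.5 and 48.3 in HD-homo libraries. It was 1.57-fold higher in HD-het cells than in control (adjusted p = 2.7e-05) and 1.5-fold lower in HD-homo cells than in HD-het cells (adjusted p = 4.58e-05), and in HD-homo cells the log2 difference from control was 0.07 (95% interval -0.10 to 0.24).

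Genes that work with the carriers were read from 3 lists. Carriers are imported through Tom70 and the TIM22 pathway, and of 10 tested import genes 1 rose and 5 fell in HD-het cells, and 1 rose and 2 fell in HD-homo cells. These counts stand beside 33.8% of all genes higher and 31.4% lower in HD-het cells and 29.6% higher and 28.9% lower in HD-homo cells. Among the import genes Timm13, a small chaperone of the intermembrane space, was at 114 CPM in control, 63.0 in HD-het and 93.8 in HD-homo cells, 1.80-fold lower in HD-het cells (adjusted p = 2.14e-05). Timm9, which escorts carriers across the same space, was 1.80-fold lower in HD-het (adjusted p = 1.3e-05) and 1.39-fold lower in HD-homo cells (adjusted p = 0.00109), and its partner Timm10 was 1.24-fold higher in HD-homo cells (adjusted p = 0.0225). Of 15 enzymes that use the carriers' substrates in shuttles, 5 were higher and 5 lower in HD-het cells, and 2 were higher and 8 lower in HD-homo cells, the HD-het counts being near the shares over all genes (33.8% higher and 31.4% lower). Got1, the cytosolic aspartate aminotransferase of the malate-aspartate shuttle, was at 106, 98.6 and 109 CPM in control, 49.1, 46.6 and 50.6 in HD-het and 82.9, 78.8 and 80.6 in HD-homo libraries, and fell 2.15-fold in HD-het cells (adjusted p = 6.11e-08). Acly, which splits the citrate that Slc25a1 exports, was 1.98-fold lower in HD-het (adjusted p = 4.44e-07). Cpt1a, the outer-membrane enzyme that makes the acylcarnitines moved by Slc25a20, had 63.8, 59.9 and 62.6 CPM in control, 99.6, 95.8 and 84.8 in HD-het and 111, 117 and 125 in HD-homo libraries. It was 1.5-fold higher in HD-het (adjusted p = 2.82e-05) and 1.89-fold higher in HD-homo cells (adjusted p = 8.41e-07). Gpd1, the cytosolic enzyme of the glycerol phosphate shuttle, was low in all lines and 4.92-fold lower in HD-homo cells than in control (adjusted p = 3.86e-06).

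Of 22 mitochondrial transporters outside the family, none was higher and 9 were lower in HD-het cells than in control by edgeR's quasi-likelihood test, and 5 were higher and 10 lower in HD-homo cells, beside 33.8% higher and 31.4% lower of all genes in HD-het and 29.6% and 28.9% in HD-homo cells. None was higher in HD-het cells at an unadjusted p under 0.05 either (0 genes), and DESeq2's Wald test called 0 higher and 9 lower. Mcub, a subunit that lowers calcium uptake by the uniporter, was 1.65-fold lower in HD-het cells (adjusted p = 0.00323), and the sideroflexin Sfxn2 was 1.59-fold lower there (adjusted p = 0.00024). Mcu, the pore of the calcium uniporter, named after its values were seen, was at 55.1 CPM in control, 43.2 in HD-het and 92.3 in HD-homo cells. It differed from control in both lines in opposite directions (adjusted p = 0.000839 and 2.64e-06). Abcb8, an inner-membrane ABC transporter, was 1.96-fold lower in HD-homo cells (adjusted p = 7.01e-05).

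**Figure D4:**
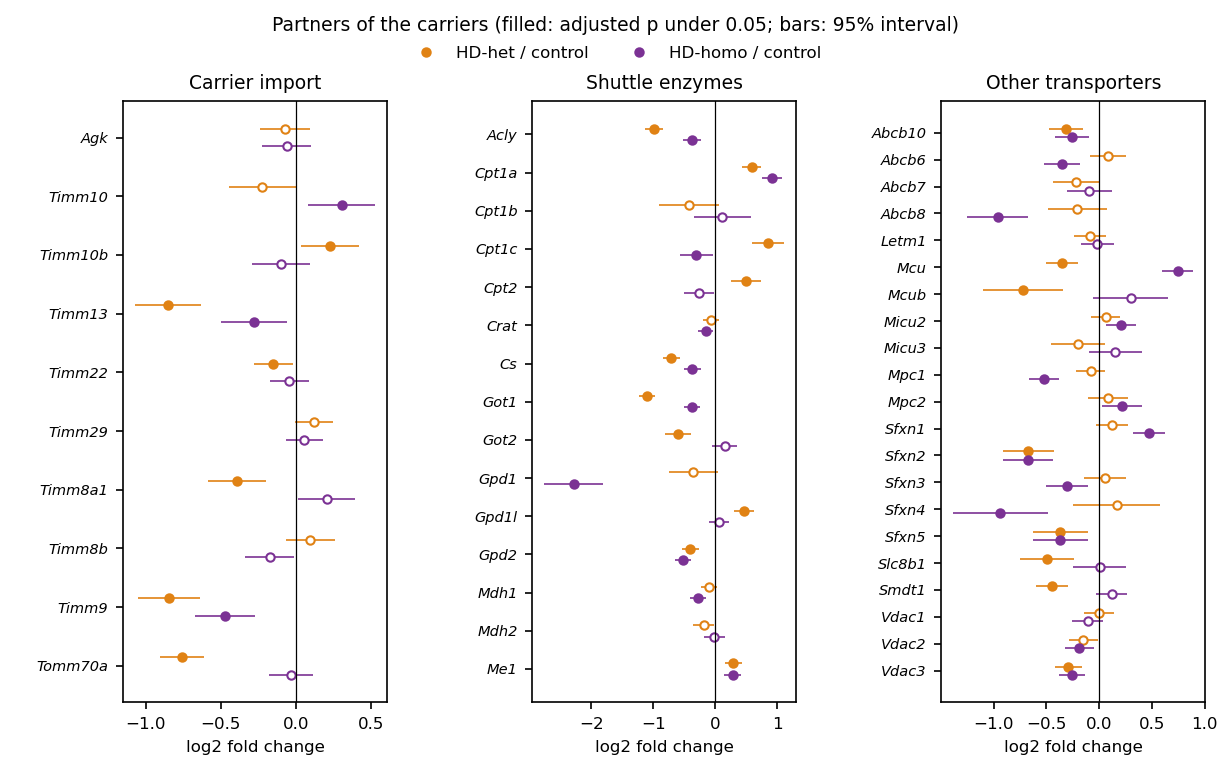
Log2 fold change against control, with 95% interval, of genes that import the carriers, of shuttle enzymes and of other mitochondrial transporters, in HD-het and HD-homo cells. Filled points passed edgeR's quasi-likelihood test at an adjusted p under 0.05. Timm9 lies below 0 and Cpt1a above 0 in both lines, while Mcu lies on opposite sides of 0 in the 2 lines.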

How the data were processed

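Poly(A) RNA of 9 libraries, 3 per line, was sequenced by the authors from strand-specific libraries, and the deposited values are raw counts per gene symbol. The submitters' processing notes name cutadapt, Bowtie 1.1.2, RSEM 1.3.0 and DESeq2 without roles. All counts were whole numbers, so estimates, if any, had been rounded. Of the 36410 rows, 26 are labelled by a date instead of a gene. Totals ran from 29507665 to 41197931.

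The counts were then compared by edgeR 4.0.16 under R 4.3.3. Its filterByExpr (minimum count 10, grouped by line) chose the genes tested, and libraries were scaled by TMM (factors 0.984 to 1.03). The 9 libraries entered a single quasi-likelihood fit by line, tested two-sided, and p-values were adjusted by Benjamini-Hochberg over 13508 genes in each comparison. The fit shared its estimate of spread over lines whose spread was unequal. Over 11654 genes, variance between libraries relative to counting error was 2.30 for control replicates 1 and 2, and 11.7 and 12.7 for pairs with control replicate 3. It was 6.72 for HD-het replicates 1 and 2, 19.0 and 23.0 for pairs with HD-het replicate 3, and 24.5 to 42.8 in HD-homo pairs. Folds are ratios of mean CPM, and folds against libraries at 3 counts or fewer are lower bounds. The pipeline was tested on simulated data.

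Members and gene lists were chosen with earlier results of these data known. Named are, per comparison, the 5 largest increases and decreases past the threshold with at least 5 CPM and no overlap between libraries, the ADP/ATP, phosphate, aspartate/glutamate and citrate carriers, mitoferrins, uncoupling proteins and outer-membrane members, other members by role, and the 2 largest changes per partner list and HD line. All 52 members matched RefSeq and GENCODE on GRCm38. Alternatives were DESeq2 1.42.0 (size factors, and its Wald test), library totals, other filters, 2 lines per fit, a replicate block, an adjusted p under 0.01, a prior count of 2, each library left out and, chosen after seeing the data, replicate 3 of control and HD-het left out together. Some genes of these lists are counted but not reported here.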

Additional observations from a re-analysis of the deposited data

How the results depend on the processing

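The numbers of carriers called kept within 1.5 times their value under each alternative scaling, test, filter and choice of lines, with these exceptions. At an adjusted p under 0.01 4 carriers were higher and 11 lower in HD-homo cells against control. With each library left out in turn, 5 to 8 were higher and 14 to 19 lower in HD-homo cells, 11 to 13 higher and 14 to 17 lower in HD-het cells, and 13 to 16 higher and 12 to 13 lower between the HD lines (HD-homo against HD-het). The count of 5 was obtained without control replicate 1, where Mtch2, Slc25a39 and Slc25a43 were no longer called among those higher. The cause was not tested. Of the 82 called log2 fold changes of the 43 tested carriers, 67 kept an adjusted p under 0.05 under every alternative that could be computed, 15 lost it under at least 1, and none changed sign. The stricter threshold of 0.01 is not among the alternatives counted there. Of 47 that did not pass, 9 passed under some alternative. With replicate 3 of control and HD-het left out together, the calls lost included Slc25a1 and Slc25a32 in HD-homo cells. Those of Slc25a4, Slc25a40 and Slc25a45 in HD-het cells were lost there too. The sign turned for some log2 fold changes that did not pass. These were Slc25a27 between the HD lines without HD-homo replicate 3 (0.12), Slc25a35 in HD-homo cells without control replicate 3 (0.12) and without replicate 3 of control and HD-het together (0.12), Slc25a4 between the HD lines with library totals (0.0031), Slc25a48 in HD-het cells without control replicate 2 (-0.28) or HD-het replicate 3 (-0.09), and Slc25a5 in HD-homo cells without HD-homo replicate 1 (-0.015). With each library left out in turn these ran from -0.24 to 0.12 for Slc25a27, -0.69 to 0.12 for Slc25a35, -0.28 to 1.19 for Slc25a48 and -0.015 to 0.056 for Slc25a5. In HD-het cells they ran from -0.111 to 0.0117 for Slc25a15 and -0.0314 to 0.0262 for Slc25a39, in HD-homo cells from -0.0387 to 0.0309 for Slc25a15 and -0.111 to 0.0122 for Slc25a16, and between the HD lines from -0.0675 to 0.0795 for Slc25a10, -0.0234 to 0.0992 for Slc25a15, -0.132 to 0.0848 for Slc25a26 and -0.21 to 0.0506 for Slc25a42. Library totals turned Slc25a15 in HD-homo cells (0.0036) and Slc25a26 between the HD lines (0.0014), fitting only 2 lines turned Slc25a10 between the HD lines (-0.0055), at least 10 counts in every library turned Slc25a39 in HD-het cells (0.0039), and leaving out replicate 3 of control and HD-het turned Slc25a26 between the HD lines (0.0849). With at least 10 counts in every library, Slc25a23, Slc25a35, Slc25a43 and Slc25a48 were not tested and have no value. Levels per kb moved with the transcript length assumed.

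In their deviations from the line means, same-numbered libraries correlated with r from 0.0867 to 0.309 for HD-het and control, 0.0283 to 0.0639 for HD-homo and control and 0.0543 to 0.247 for the HD lines. All of these were positive, while different-numbered libraries had r from -0.316 to 0.135. Whether the numbers pair the libraries was not settled, and the main fit left pairing out. Over all tested genes, a replicate block called 9160 genes in HD-het cells, 8372 in HD-homo cells and 9938 between the HD lines. The main fit called 8797, 7910 and 9666. With the replicate block, 13 carriers were higher and 16 lower in HD-het cells and 8 higher and 18 lower in HD-homo cells, where Slc25a28 was added, and 15 were higher and 13 lower between the HD lines, where Slc25a10 turned sign (-0.0011) without passing. Counting error weighs most on the members with few counts, and near the floor of 3 counts 1 read is a large share of the value.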
